A study of Homo sapiens with 2 samples.

Results

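The ATP-binding cassette (ABC) genes were taken as all probesets of the value table that carried exactly 1 gene symbol, where that symbol was ABCA to ABCG followed by a number. This gave 1525 of 877986 probesets, in 44 of 18923 gene symbols. The symbols fell into 12 ABCA, 8 ABCB, 12 ABCC, 3 ABCD, 1 ABCE, 3 ABCF and 5 ABCG genes, with 8 to 83 probesets each. The compared groups were MKN45P, labelled a high-metastatic gastric cancer line, and MKN45, its parental gastric cancer line. RNA from cell lysate of each line was read on 1 exon array, on which small groups of probes (probesets) read a gene at many places along its exons. The labels give no treatment beyond routine culture and harvest, and no engineered allele, for either line.

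ABC proteins bind and hydrolyse ATP. Most move lipids, conjugated metabolites, drugs, haem compounds or peptides across a membrane, and the family is divided by sequence into subfamilies A to G. ABCE1 and the ABCF proteins have no membrane part and act on the ribosome. In epithelial cells the position of an ABCC exporter decides the direction of export: ABCC2 lies in the apical membrane, whereas ABCC1 and ABCC3 lie in the basolateral membrane. ABCB1 (P-glycoprotein), ABCG2 and several ABCC proteins are known for exporting anticancer drugs.

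The unit throughout is the log2 signal as deposited. A level is the median over a gene's probesets on 1 array, and a difference is the median over its probesets of MKN45P minus MKN45, so 1 unit is 2-fold. Genes are called measured where they had 4 or more probesets and where their level, averaged over both arrays, reached 1.92, the median of all probesets. This left 26 measured ABC genes and 18 below that level. Probesets whose average over both arrays reached 2.77, the 75th percentile, are called probesets with signal; a probeset high in 1 line alone can qualify, so no difference is read from them as support. With 1 array of each line there was no replicate error and no test between the lines. The range given in brackets is the interquartile range over a gene's probesets within these arrays, and it does not measure variation between cultures.

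Among the 26 measured ABC genes, 2 passed 2-fold upward in MKN45P and 1 passed it downward. The higher genes were ABCA1, which loads cell cholesterol and phospholipid onto apolipoprotein A-I, and ABCC3, a basolateral exporter of conjugated organic anions. The lower gene was ABCC2, the apical exporter of the same class of conjugates. The ABC shares were 7.69% upward and 3.85% downward, beside 4.58% and 1.2% of all 13130 measured genes. Since 1 gene of 26 is itself 3.85%, nothing particular to the family is read from them. With differences between median levels the upward share was 7.69% of ABC genes and 9.62% of all genes. The median difference was -0.01 over the 26 ABC genes (interquartile range over genes -0.09 to 0.14) and 0.03 over all measured genes. A positive difference was found in 12 of the 26, a share of 46.2%, beside 54.9% of all measured genes. For 22 of the 26 (84.6%) the difference was below 0.5 in either direction, beside 79.6% of all measured genes. Of the 26, 10 had an average level below the 75th percentile, where differences are compressed.

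**Figure D1:**
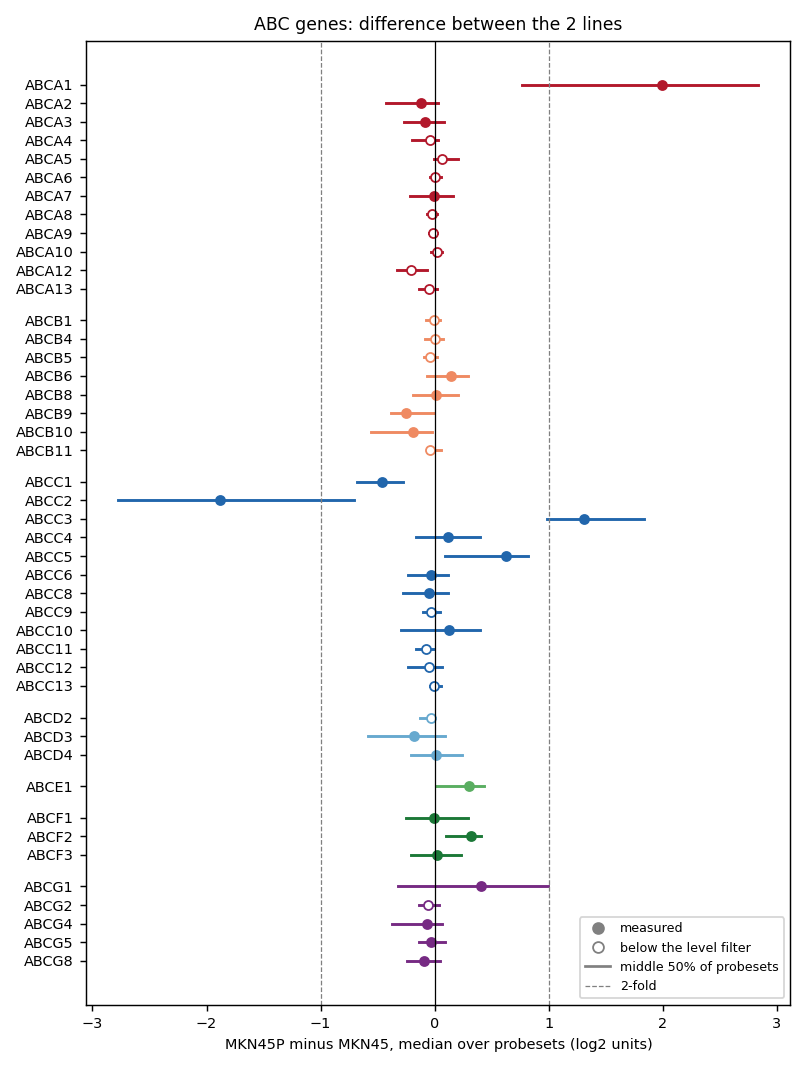
Difference between MKN45P and MKN45 (x axis, log2 units, median over probesets) for each of the 44 ABC genes, grouped by subfamily down the page; filled points are the 26 measured genes, open points the 18 below the level filter, bars the middle 50% of probesets and dashed lines 2-fold. ABCA1 (1.996) and ABCC3 (1.31) lie to the right of the dashed lines and ABCC2 (-1.88) to the left, and the other 41 genes lie between them.

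ABCA1 had the largest difference of the 44 genes. Its level was 4.07 in MKN45P, against 1.95 in MKN45, and the difference was 1.996 (0.76 to 2.84 over 62 probesets), which is 3.99-fold. The MKN45 level was close to the median of all probesets, where values are compressed, so this difference can understate the change in RNA. The arrays read bulk lysate, so more RNA per cell and more cells expressing a gene cannot be told apart. Of the 62 probesets, 57 were higher in MKN45P and 42 were at least 2-fold higher. Single probesets ran from 1.61 to 8.88 in MKN45P and from 1.63 to 7.42 in MKN45. In MKN45P 47 of the 62 probesets reached 2.77, the level called signal, against 10 in MKN45.

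Windows around the annotated start sites were sought for the ABC genes past 2-fold. None was available for ABCC3, and those of ABCA1 and ABCC2 are shown. They come from RefSeq on GRCh38.p14, which matched 35 of the 44 genes, and they hold 250 bases before and 50 after the start on the gene's own strand. Capitals mark matches on either strand to the TATA box (TATAAA), the GC box (GGGCGG), the E-box (CACGTG) and a direct repeat of the type bound by the liver X receptors with their RXR partner (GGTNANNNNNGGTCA). No 2 matches overlap. The letters of the repeat were chosen after the ABCA1 window had been read. The ABCA1 window is chr9:104928106-104928405, minus strand, and the ABCC2 window is chr10:99782390-99782689, plus strand.
ABCA1: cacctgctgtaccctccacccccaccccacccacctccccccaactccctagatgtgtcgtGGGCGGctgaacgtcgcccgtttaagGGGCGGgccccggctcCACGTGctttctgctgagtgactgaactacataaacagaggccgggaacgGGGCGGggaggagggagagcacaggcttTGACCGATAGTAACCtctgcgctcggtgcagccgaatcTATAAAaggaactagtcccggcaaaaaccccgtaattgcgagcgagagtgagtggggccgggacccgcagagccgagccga
ABCC2: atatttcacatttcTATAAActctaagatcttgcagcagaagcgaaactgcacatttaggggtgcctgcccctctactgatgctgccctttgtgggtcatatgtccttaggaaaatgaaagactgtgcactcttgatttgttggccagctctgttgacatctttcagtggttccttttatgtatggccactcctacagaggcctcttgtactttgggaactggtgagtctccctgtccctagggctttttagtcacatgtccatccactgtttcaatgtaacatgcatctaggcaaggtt

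The ABCA1 window held 3 GC boxes, 1 E-box, 1 TATA box and 1 match to the repeat, and 62.7% of its bases were G or C. The ABCC2 window held 1 match to the TATA box letters and none of the other 3 motifs, and 45.0% of its bases were G or C. Counted from the start site, this match began at -236, whereas the TATA box match of ABCA1 began at -31. Of 35116 such windows in the table, 11.5% held the TATA box, 45.0% the GC box, 7.26% the E-box and 0.239% the repeat. The match in ABCA1 was known when the repeat's letters were set, so its presence there is no result. A match is a run of letters and was not shown to be bound in these cells.

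The other 11 ABCA genes all lay within 2-fold, and 8 of them were below the level filter. ABCA2, a lipid transporter of lysosomes, had levels of 5.37 in MKN45P and 5.61 in MKN45, with a difference of -0.12 (-0.43 to 0.03 over 60 probesets), the lowest of the measured ABCA genes. ABCA7, a phospholipid transporter, was at 2.86 in MKN45P and 2.94 in MKN45 (difference -0.01). ABCA3, which fills the lamellar bodies of lung surfactant, was at 2.33 in MKN45P and 2.52 in MKN45 (difference -0.08). The 8 unmeasured genes were ABCA4, ABCA5, ABCA6, ABCA8, ABCA9, ABCA10, ABCA12 and ABCA13, and their differences ran from -0.21 to 0.06. ABCA12, the lipid transporter of the skin barrier, had the lowest of these, with levels of 1.76 in MKN45P and 1.999 in MKN45. Of its 61 probesets 54 were lower in MKN45P, 5 of them by 2-fold or more. ABCA8, ABCA9, ABCA6, ABCA10 and ABCA5 follow each other directly in the RefSeq gene order of chromosome 17, and all 5 were below the filter in these data.

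Of the ABCG genes, ABCG1 showed the widest spread between its probesets. ABCG1 passes cholesterol to high-density lipoprotein, after ABCA1 has begun to load it. Its level was 3.10 in MKN45P, against 2.75 in MKN45, and its difference of 0.41 (-0.32 to 0.99 over 35 probesets) was below 2-fold. Of its 35 probesets 9 passed 2-fold upward in MKN45P and 1 downward, so its probesets differed in both directions. The sterol half-transporters ABCG5 (difference -0.03) and ABCG8 (-0.09), which work as a pair and are neighbours on chromosome 2, and ABCG4 (-0.06) lay near 0 at low levels. Of the 17 genes on the list of sterol and phospholipid transporters, 8 were measured, with 1 at least 2-fold higher, none at least 2-fold lower and a median difference of -0.05. That 1 gene is 12.5% of the 8, beside 4.58% of all measured genes, so nothing particular to the list is read from it.

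**Figure D2:**
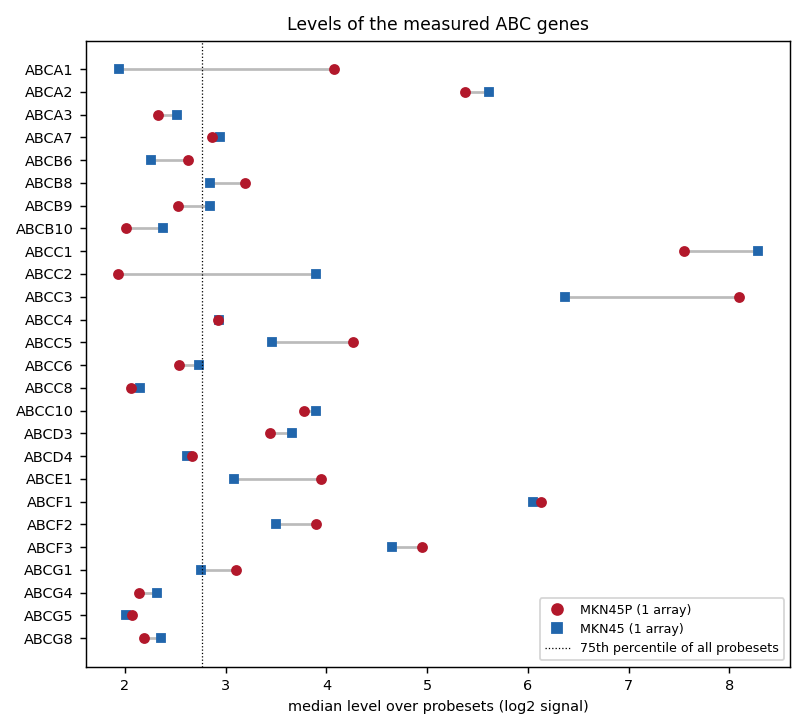
Median level over probesets (x axis, log2 signal) of the 26 measured ABC genes in MKN45P (red circles) and MKN45 (blue squares), 1 array each; the dotted line is the 75th percentile of all probesets. The circle and square lie far apart for ABCA1 (4.07 in MKN45P and 1.95 in MKN45), ABCC2 (1.94 in MKN45P and 3.90 in MKN45) and ABCC3 (8.09 in MKN45P and 6.37 in MKN45).

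The ABCC genes held the drug exporters that could be measured, and they differed in both directions. ABCC3 had levels of 8.09 in MKN45P and 6.37 in MKN45, with a difference of 1.31 (0.98 to 1.83 over 36 probesets). Of its 36 probesets 34 were higher in MKN45P and 25 at least 2-fold higher. In MKN45P 35 of the 36 probesets reached 2.77, against 31 in MKN45, so ABCC3 had signal in both lines.

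ABCC2 had levels of 1.94 in MKN45P and 3.90 in MKN45, with a difference of -1.88 (-2.77 to -0.71 over 38 probesets). Its probesets ran from 1.64 to 3.80 in MKN45P and from 1.63 to 7.78 in MKN45. Of the 38 probesets, 37 were lower in MKN45P and 25 at least 2-fold lower. In MKN45P 5 of the 38 probesets reached 2.77, against 27 in MKN45. The MKN45P level was close to the median of all probesets, 1.92, where a fall is compressed, so the difference can understate the change in RNA.

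ABCC1, a basolateral exporter of glutathione conjugates and of many drugs, had levels of 7.54 in MKN45P and 8.29 in MKN45. Its difference was -0.46 (-0.68 to -0.28 over 34 probesets). All 34 probesets had signal and 31 were lower in MKN45P, but only 4 by 2-fold or more, so ABCC1 differed by a small amount in nearly every probeset. ABCC5, an exporter of cyclic nucleotides and nucleotide analogues, was at 4.26 in MKN45P and 3.46 in MKN45, with a difference of 0.63 (0.09 to 0.82 over 40 probesets). In ABCC5, 32 probesets were higher in MKN45P and 9 at least 2-fold higher, 1 was at least 2-fold lower, and the gene stayed below 2-fold.

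ABCC4, an exporter of cyclic nucleotides and prostaglandins encoded on chromosome 13, had levels of 2.93 in MKN45P and 2.94 in MKN45 and a difference of 0.11. ABCC10, a broad drug exporter, was at 3.77 in MKN45P and 3.90 in MKN45 with a difference of 0.12 (-0.30 to 0.40 over 31 probesets). In ABCC4 and ABCC10 the median of the probeset differences and the difference between the levels had opposite signs, so no direction is given for either. ABCC6, which neighbours ABCC1 on chromosome 16, was at 2.54 in MKN45P and 2.73 in MKN45 (difference -0.03), and its RNA is uncertain because near-identical pseudogene copies can bind the same probes. ABCC8, the regulatory subunit of the potassium channel of insulin-secreting cells, was at 2.06 in MKN45P and 2.15 in MKN45 (difference -0.05).

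**Figure D3:**
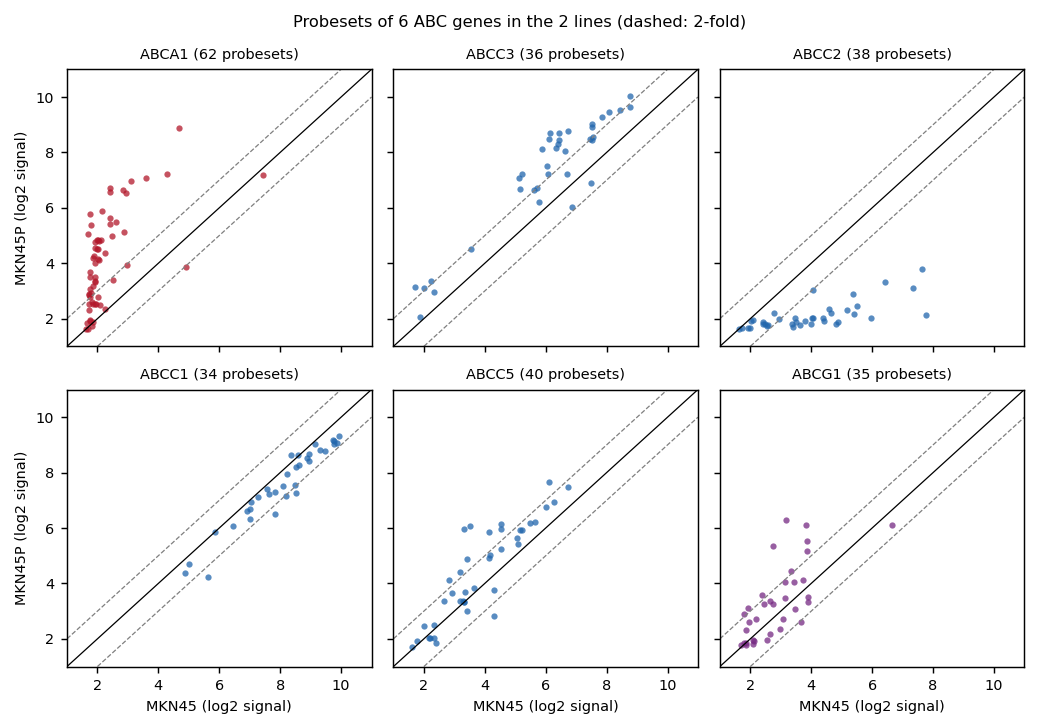
Each probeset of 6 ABC genes by its value in MKN45P (y axis, log2 signal) and MKN45 (x axis, log2 signal); the solid line is equality and the dashed lines are 2-fold. In ABCA1 42 of 62 probesets lie on or above the upper dashed line and in ABCC3 25 of 36, in ABCC2 25 of 38 lie on or below the lower one, and in ABCC1, ABCC5 and ABCG1 most lie between the lines.

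The best known multidrug exporters of the ABCB and ABCG subfamilies were below the level filter in both lines. ABCB1 had levels of 1.72 in MKN45P and 1.77 in MKN45 over 34 probesets, and none of its probesets differed by 2-fold. ABCG2, the breast cancer resistance protein, had levels of 1.81 in MKN45P and 1.78 in MKN45 over 22 probesets, also with none past 2-fold. A single probeset of each had signal. No detection call was available, so these values show signal near the low end of the scale and not that the RNA was absent. Also below the filter, with a single probeset with signal and none past 2-fold, were ABCB4, the phosphatidylcholine floppase of bile (1.75 in MKN45P and 1.72 in MKN45), ABCB5 (1.67 in MKN45P and 1.70 in MKN45) and the bile salt export pump ABCB11 (1.72 in MKN45P and 1.75 in MKN45). ABCC11 was below the filter at 1.90 in MKN45P and 1.91 in MKN45, with 3 probesets with signal and none past 2-fold. ABCC12 was below it at 1.85 in MKN45P and 1.81 in MKN45, with 7 probesets with signal and 1 of its 43 probesets at least 2-fold lower. Of the 14 genes on the drug exporter list, 7 were therefore measured, all of them ABCC genes, with 1 at least 2-fold higher, 1 at least 2-fold lower and a median difference of 0.11. Each call is 14.3% of the 7, beside 4.58% upward and 1.2% downward of all measured genes, and 1 gene makes up each share. ABCB4 and ABCB1 are direct neighbours on chromosome 7, and ABCC12 and ABCC11 on chromosome 16. The ABCC genes below the filter also included ABCC9, a channel subunit of muscle, and ABCC13, which RefSeq lists as a transcribed pseudogene, with differences that round to -0.03 and 0.00.

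The intracellular half-transporters with ABCB and ABCD symbols and the soluble ABC proteins lay within 2-fold; TAP1 and TAP2, which belong to the same subfamily as ABCB1 but do not carry its symbol, are described further on. Of the mitochondrial transporters, ABCB6, a porphyrin transporter, was at 2.63 in MKN45P and 2.26 in MKN45 (difference 0.15), the highest difference among measured ABCB genes. ABCB8 was at 3.19 in MKN45P and 2.84 in MKN45, although the median of its probeset differences was 0.01. ABCB10, which serves haem synthesis in red cell precursors, was at 2.01 in MKN45P and 2.38 in MKN45, with a difference of -0.19 (-0.56 to -0.03 over 10 probesets).

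ABCB9, a lysosomal peptide transporter, had the lowest difference among measured ABCB genes, with levels of 2.53 in MKN45P and 2.84 in MKN45 and a difference of -0.25 (-0.38 to -0.01 over 22 probesets). ABCD3, which brings branched and long-chain acyl-CoA into peroxisomes, was at 3.44 in MKN45P and 3.65 in MKN45, with a difference of -0.18 (-0.59 to 0.10 over 26 probesets). ABCD4, needed for the release of cobalamin from lysosomes, differed by 0.01, and ABCD2, another peroxisomal transporter, was below the filter at 1.68 in MKN45P and 1.71 in MKN45.

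ABCE1, which splits ribosomes after translation ends, was at 3.94 in MKN45P and 3.09 in MKN45, with a difference of 0.30 (0.01 to 0.44 over 8 probesets). ABCF2 was at 3.90 in MKN45P and 3.50 in MKN45, and its difference of 0.32 (0.10 to 0.41 over 15 probesets) was the highest of the ABCF genes. ABCF1, which acts in translation initiation, was the lowest at -0.01, with levels of 6.13 in MKN45P and 6.05 in MKN45. ABCF3 differed by 0.02. The 4 genes of this kind were all measured, had a median difference of 0.16 and held no gene past 2-fold.

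By subfamily, counting only genes that carry these symbols, the medians of the measured genes were close to 0 throughout. They were -0.04 for 4 ABCA genes, -0.09 for 4 ABCB, 0.04 for 8 ABCC, -0.08 for 2 ABCD, 0.02 for 3 ABCF and -0.05 for 4 ABCG genes. The range of differences was widest in ABCC, from -1.88 to 1.31, and next in ABCA, from -0.12 to 1.996. In ABCA 1 of 4 measured genes passed 2-fold and in ABCC 2 of 8, and none did in the others; TAP1 and TAP2 are not counted here. The filter used the average of both arrays, and the lower line of each measured ABC gene was also above it.

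Within genes, 15 ABC probesets with signal departed by at least 2 from the difference of their gene, which is taken over all its probesets. A departure was taken as the difference of a probeset with signal minus that of its gene, in measured genes with at least 8 probesets. Of 476 such ABC probesets, 7 (1.47%) departed by at least 2 upward and 8 (1.68%) by at least 2 downward, beside 1.07% upward and 0.611% downward over all measured genes. Probesets of 1 gene are not independent, and 6 of the 15 lay in ABCA1 and 3 in ABCC2. The others lay in ABCB9, ABCC3, ABCC5 and ABCG1. The largest upward departure was 2.70, at probeset 3922522 of ABCG1, with values of 6.28 in MKN45P and 3.18 in MKN45. The next were at probesets 3218559 (2.31) and 3218554 (2.21) of ABCA1, where values were 6.71 and 8.88 in MKN45P, against 2.40 and 4.68 in MKN45.

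The largest downward departure was -3.77, at probeset 3260497 of ABCC2, which had 2.12 in MKN45P and 7.78 in MKN45. Probeset 3475906 of ABCB9 had 3.01 in MKN45P and 6.53 in MKN45, a departure of -3.27 from a gene that itself differed by -0.25. Probeset 3218656 of ABCA1 was the only ABCA1 probeset at least 2-fold lower, with 3.87 in MKN45P and 4.89 in MKN45 and a departure of -3.01. The gene differences of ABCA1 and ABCC2 themselves include probesets without signal, 27 of 62 in ABCA1 and 18 of 38 in ABCC2. The median difference in ABCA1 was 2.81 over probesets with signal and 0.75 over those without. In ABCC2 these medians were -2.68 and -0.65. Upward departures in ABCA1 and downward ones in ABCC2 are therefore larger than against probesets with signal alone. How many would pass the limit of 2 that way was not tested.

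Of 3 ABC genes whose symbols do not follow the family pattern, 2 passed 2-fold upward in MKN45P, the peptide transporter genes TAP1 and TAP2. Over all measured genes 4.58% did. TAP1 and TAP2 form the pump that loads peptides for MHC class I. TAP1 was at 8.56 in MKN45P and 4.26 in MKN45 (difference 3.68), and TAP2 at 5.83 in MKN45P and 3.43 in MKN45 (difference 2.09). CFTR, the chloride channel of the ABCC subfamily, was below the filter at 1.70 in MKN45P and 1.72 in MKN45.

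Genes that act with ABC transporters were read as lists. Among all measured genes, 4.58% passed 2-fold upward and 1.2% downward. The lists are small, so nothing particular to them is read from their counts. Of 17 listed receptors and factors that control ABC exporter genes, 14 were measured and none passed 2-fold; their median difference was -0.03. NR1H3, the liver X receptor alpha, which activates the genes of ABCA1 and ABCG1, was at 3.48 in MKN45P and 4.58 in MKN45, with a difference of -0.64 (-1.26 to 0.00 over 17 probesets). NR1H2, its beta form, was at 3.79 in MKN45P and 3.14 in MKN45 (difference 0.38), and their partner RXRA at 4.08 in MKN45P and 3.56 in MKN45 (difference 0.36). AHR, the aryl hydrocarbon receptor, was at 7.39 in MKN45P and 7.98 in MKN45 (difference -0.66), and NFE2L2, the regulator of antioxidant genes, was at 7.18 in MKN45P and 6.83 in MKN45 (difference 0.09).

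Among 7 measured scaffold and chaperone partners, MSN, encoding the membrane linker moesin, was at least 2-fold higher, at 6.55 in MKN45P and 4.78 in MKN45 (difference 1.37 over 4 probesets); the median was 0.21. Of 16 measured glutathione and conjugating enzymes none passed 2-fold, and their median was 0.13. The nearest was MGST3, a microsomal glutathione transferase, at 2.97 in MKN45P and 3.96 in MKN45, lower at all 10 probesets with a difference just inside the limit. Next was MGST2, at 7.35 in MKN45P and 5.76 in MKN45 (difference 0.91, higher at all 10 probesets). Of the 16 enzymes, 11 had a difference above 0 and 5 below. Of 17 measured solute carriers of drug uptake, 1 was at least 2-fold higher and 1 lower, with a median of -0.17. The higher one was the peptide carrier SLC15A1, at 6.05 in MKN45P and 3.81 in MKN45 (difference 2.21, higher at all 27 probesets). The lower one was the organic anion carrier SLCO2B1, at 2.09 in MKN45P and 3.44 in MKN45 (difference -1.30 over 22 probesets). The copper exporters ATP7A and ATP7B and the vault protein gene MVP lay within 2-fold (median 0.06).

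**Figure D4:**
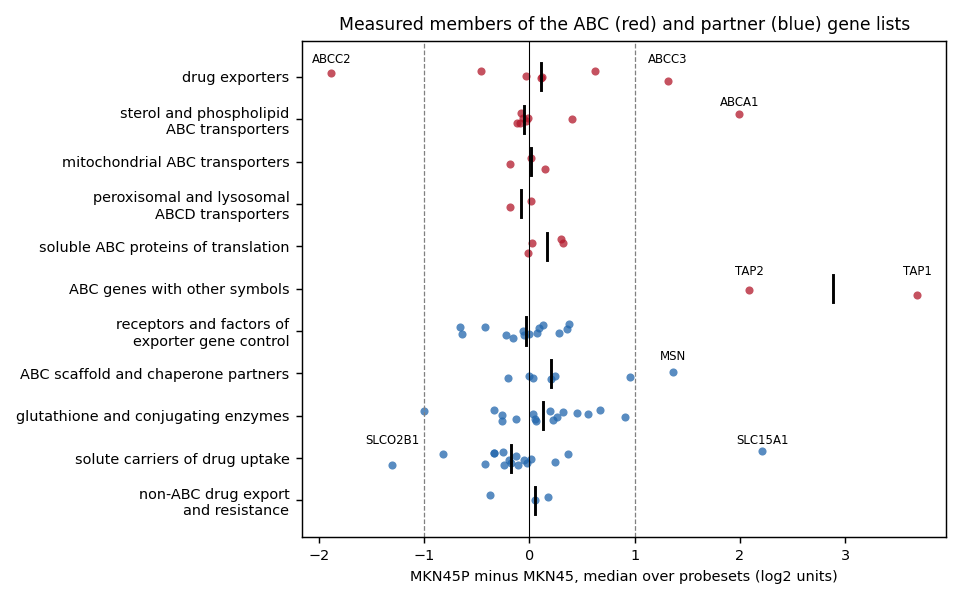
Difference between MKN45P and MKN45 (x axis, log2 units) for each measured member of 6 ABC gene lists (red) and 5 lists of partner genes (blue), with black bars for list medians and dashed lines for 2-fold. The genes named in the plot are the 8 past 2-fold, which run from ABCC2 at -1.88 to TAP1 at 3.68.

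The 8 measured epithelial markers had levels from 3.13 to 10.74 in MKN45P and from 3.31 to 10.26 in MKN45. CDH1 was at 10.74 in MKN45P and 10.26 in MKN45. Of the 8 measured epithelial markers, 2 were at least 2-fold higher in MKN45P, CLDN7 (difference 1.14) and ESRP1 (1.04). None was at least 2-fold lower, although KRT8 (-0.21) and KRT18 (-0.08) were below 0, and the median was 0.37. Of 9 gastric markers 3 were below the filter, the gastrokine genes GKN1 and GKN2 and the trefoil gene TFF2. The 6 measured had a median of -0.20, and all but ANXA10 and VSIG1 lay within 2-fold. ANXA10 rose from 2.32 in MKN45 to 4.39 in MKN45P (difference 2.17, higher at all 15 probesets). VSIG1 fell from 6.82 in MKN45 to 1.80 in MKN45P (difference -5.11, lower at all 12 probesets). No other of the 13130 measured genes had a difference as low as that of VSIG1. Of 8 fibroblast markers 5 were measured, with FBLN1 at least 2-fold higher (difference 1.10) and a median of -0.05. All 8 mesothelial markers were measured (median -0.07), with KRT5 at least 2-fold higher (1.06) and UPK3B at least 2-fold lower (-1.06). Their highest levels were those of CALB2 (9.49 in MKN45P and 8.70 in MKN45) and KRT5 (8.47 in MKN45P and 7.41 in MKN45). No immune, endothelial or hepatocyte marker passed 2-fold among 4, 5 and 3 measured, with medians of -0.25, -0.16 and -0.08. The 4 measured immune markers had levels from 2.17 to 2.50 in MKN45P and from 2.10 to 3.12 in MKN45. For the 3 measured hepatocyte markers levels ran from 1.88 to 2.29 in MKN45P and from 1.95 to 2.72 in MKN45. Among the markers below the filter, the immune cell gene PTPRC was at 1.65 in MKN45P and 1.66 in MKN45. ALB, the defining hepatocyte gene, was at 1.74 in MKN45P and 1.73 in MKN45. Both genes were near the low end of the scale in both lines.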

How the data were processed

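Total RNA of MKN45P and MKN45 was depleted of ribosomal RNA, copied with a whole-transcript kit and hybridised to an Affymetrix exon array, per the labels' protocols. The authors deposited 1 log2 value per probeset and array; the log base was read from the values. Partek and the hg18 build are named per the submitters' processing notes; how background and normalization were handled is not given in the sources used here. The columns were used as deposited: medians were 1.91 in MKN45P and 1.93 in MKN45, and r over all probesets was 0.953. One array of each line limits the precision.

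In GEO's platform annotation 286871 probesets had 1 symbol, 3137 had several and were left out, and 587978 were unnamed here. All 44 ABC symbols were found in the RefSeq table of GRCh38.p14, used for names, gene order and promoter windows; no hg18 coordinate was used. Gene differences, the level filter and departures were computed as the report defines them, in Python 3.11.15 with numpy 2.4.6, pandas 2.3.3 and statsmodels 0.14.6, and the gene step was tested on simulated data. Members and gene lists were chosen with earlier results of these data known. Values were to be given for ABC genes past 2-fold, drug exporters and the extremes of each subfamily, for up to 6 list members past 2-fold, and for the 3 largest departures each way; the partner genes, markers and other ABC genes named within 2-fold were added after their values were seen. A listed gene absent under its symbol was sought under its older names, and 10 were not found. Alternatives were another summary over probesets, quantile or loess normalization, and other filters.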

Additional observations from a re-analysis of the deposited data

How the results depend on the processing

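Under each of 7 alternatives (the mean of probeset differences, the difference between median levels, quantile normalization, loess on level, no level filter, probesets with signal only, and at least 10 probesets), ABCA1 and ABCC3 were the ABC genes at least 2-fold higher in MKN45P and ABCC2 the one at least 2-fold lower; probesets with signal are chosen on the average of both lines, which favours a large difference. Over these settings the difference ran from 1.86 to 2.81 for ABCA1, from 1.21 to 1.72 for ABCC3 and from -2.68 to -1.74 for ABCC2. The share past 2-fold upward was 7.69% of ABC genes and 9.62% of all genes with differences between median levels, and 7.14% of ABC genes and 11.4% of all genes with probesets with signal only. The downward shares over all genes were 2.32% and 2.94%. The median difference of the measured ABC genes was -0.12 over 28 genes with probesets with signal only; elsewhere it stayed near 0, and with loess it was 0.03. Dropping the level filter or asking for at least 10 probesets changes only which genes count as measured. The value and call of a gene that stays measured could not change under these settings, so they do not test it. Of 180 single-gene values under all the alternatives, including those that could not change, 9 moved by more than 0.5 of the gene's interquartile range over probesets. Examples are ABCC1 (-0.74) and ABCE1 (0.86) as differences between median levels, and ABCB10 (-0.98) and ABCG5 (-0.48) with probesets with signal only; the cause was not tested. Signs of small differences are not settled: ABCA3, ABCA7, ABCB8, ABCC4, ABCC10, ABCD4, ABCF1, ABCG5 and ABCG8 took both. No paired analysis was possible because each line had 1 array. Low signal limits what can be said of the 18 genes below the filter.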

Other observations

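The ABC symbols that end in P or P1, for pseudogenes, lay outside the rule, and none of the 3 met both the level and the number of probesets required. ABCA17P was at 1.66 in MKN45P and 1.70 in MKN45 over 19 probesets, and ABCA11P at 1.74 in MKN45P and 1.76 in MKN45 over 3 probesets. ABCC6P1, a copy of part of ABCC6, was at 2.25 in MKN45P and 2.10 in MKN45 over 2 probesets, a difference of 0.15, while ABCC6 itself differed by -0.03.

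Some genes below the level filter had single probesets with clear signal in both lines. The highest probeset of ABCB4 was at 4.80 in MKN45P and 4.79 in MKN45. The highest of ABCA13 was at 5.14 in MKN45P and 5.66 in MKN45, the highest of ABCA4 at 5.66 in MKN45P and 5.91 in MKN45, and the highest of ABCC13 at 5.02 in MKN45P and 4.53 in MKN45.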
